A study of Mus musculus with 6 samples.

Results

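Transcripts of the MHC class I antigen presentation pathway were measured in the dentate gyrus (DG), the hippocampal region of the granule cells, 72 h after kainic acid-induced status epilepticus (KA-SE). The genes described are B2m, H2-K1, H2-D1, H2-T23, Tap1, Tap2, Tapbp, Psmb8, Psmb9 and Cd74. All probes whose annotated gene symbol was one of these 10 were taken, which gave 23 of the 45281 probes on the array, for 10 of the 11222 named genes with a tested probe. At least 1 probe of each of the 10 genes was bright enough to be tested, and 16 of the 23 probes were tested in all.

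The 6 mice were male, of the strain labelled C57/Black6J, and 6 to 8 weeks old. The 3 KA-SE mice had received repeated low-dose intraperitoneal injections of kainic acid, an agonist of glutamate receptors, and were included only if prolonged severe seizures had been scored. The 3 saline mice had received saline injections in the same way. No allele or transgene was used. RNA of the micro-dissected right DG of each mouse was hybridized to its own Illumina MouseWG-6 array, so each array is 1 animal. Between 48.1% and 50.3% of the probes were detected per array, and the median raw intensity lay between 47.8 and 63.0. Of 21226 tested probes, 45 rose and 4 fell after KA-SE at a limma adjusted p under 0.05, and when arrays were scaled by their medians instead, 63 rose and 15 fell. In such tissue samples, a change in the number of cells of a type and a change in RNA per cell cannot be told apart.

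Class I molecules display peptides from proteins made inside a cell at its surface, where cytotoxic T cells and natural killer cells read them. Peptides are cut by the proteasome, whose inducible catalytic subunits replace the constitutive ones under interferon, are pumped into the endoplasmic reticulum by the TAP transporter, and are loaded there with the help of tapasin onto a heavy chain bound to beta-2-microglobulin. In the brain, microglia and endothelial cells are known for class I expression, and neurons can express it at lower levels. Transcription of these genes is known to be driven by interferon regulatory factors, by NF-kappaB and by the NLRC5 enhanceosome, which assembles on the X and Y boxes upstream of the genes.

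Sequences upstream of the start are shown for B2m, H2-D1, H2-T23, Tap1 and Psmb8, because these are genes whose KA-SE arrays lay above saline for at least 1 probe or, in B2m, the light chain that every class I molecule shares. Each is the 250 bases before the RefSeq start in GRCm38.p6, written 5′ to 3′ on the gene's strand. B2m lies at chr2:122147437-122147686 on the plus strand. The windows of the others are on chromosome 17, at chr17:35262844-35263093 on the plus strand for H2-D1, chr17:36032702-36032951 on the minus strand for H2-T23, chr17:34187306-34187555 on the plus strand for Tap1 and chr17:34197945-34198194 on the plus strand for Psmb8. Capitals mark matches on either strand to the core of an interferon regulatory factor site (AANNGAAA), a gamma-activated site or GAS (TTCNNNGAA), the X2 box (TGACG), the Y box (CCAAT) and a kappaB site (GGGNNTTCC or GGNNTTTCC), and no matches overlap one another.
B2m: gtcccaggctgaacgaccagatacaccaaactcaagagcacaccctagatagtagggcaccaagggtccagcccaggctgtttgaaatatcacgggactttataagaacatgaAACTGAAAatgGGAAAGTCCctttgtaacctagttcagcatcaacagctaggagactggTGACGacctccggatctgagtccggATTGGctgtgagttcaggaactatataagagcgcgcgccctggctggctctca
H2-D1: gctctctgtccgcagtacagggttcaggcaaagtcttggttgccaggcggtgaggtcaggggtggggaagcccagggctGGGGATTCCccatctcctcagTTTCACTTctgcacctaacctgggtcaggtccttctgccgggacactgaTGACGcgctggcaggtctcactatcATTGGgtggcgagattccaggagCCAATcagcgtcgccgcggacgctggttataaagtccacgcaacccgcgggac
H2-T23: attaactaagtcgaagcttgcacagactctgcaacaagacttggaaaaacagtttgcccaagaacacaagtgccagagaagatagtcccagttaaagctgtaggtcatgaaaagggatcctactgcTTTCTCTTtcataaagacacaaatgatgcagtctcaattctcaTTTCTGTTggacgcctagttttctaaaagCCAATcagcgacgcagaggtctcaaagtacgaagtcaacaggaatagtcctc
Tap1: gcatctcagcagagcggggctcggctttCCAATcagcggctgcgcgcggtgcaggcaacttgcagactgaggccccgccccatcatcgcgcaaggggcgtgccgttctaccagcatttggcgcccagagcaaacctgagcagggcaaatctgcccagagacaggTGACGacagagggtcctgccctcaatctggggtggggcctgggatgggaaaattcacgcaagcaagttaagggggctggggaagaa
Psmb8: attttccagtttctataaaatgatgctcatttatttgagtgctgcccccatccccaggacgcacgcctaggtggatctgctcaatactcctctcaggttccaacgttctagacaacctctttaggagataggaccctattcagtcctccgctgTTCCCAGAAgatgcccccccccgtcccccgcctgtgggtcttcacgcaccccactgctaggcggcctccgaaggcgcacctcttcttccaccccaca

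The motifs were chosen after these sequences had been seen, and a match is a description of letters, not a binding site. B2m, H2-K1 and H2-D1 each held the interferon regulatory factor core, the X2 box and the Y box, a set found together in 1.08% of 32807 promoter windows of the same length. The interferon regulatory factor core stood in 4 of the 8 member windows in the table, against 21.3% of all windows. The X2 box was found in 5 and the Y box in 7 of the 8, against 17.8% and 33.8% of all. A kappaB match stood in B2m, H2-K1 and H2-D1, against 8.35% of all windows, and the GAS match only in Psmb8, against 7.02% of all. The windows of H2-K1 and H2-D1 were identical at 170 of 190 aligned bases (89.5%), so both heavy chain genes carry nearly the same upstream letters. H2-T23 shared 58.5% of aligned bases with H2-D1 and held no X2 box in these letters. Tap1 and Psmb9 are transcribed away from each other from starts 226 bases apart, and their windows share 225 bases. The X2 box match and the Y box match between them therefore belong to both, and the counts above include each of these for both genes. Neither Tap2 nor Cd74 was included, and H2-K1 is not printed because its window lies inside the annotated extent of the gene.

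Most of the members had higher mean signals after KA-SE, but none passed the test across all probes. Signals are given as background-corrected, quantile-normalized log2 intensities, and changes as KA-SE minus saline on that scale. Of the 16 tested probes, 0 passed a limma adjusted p under 0.05, where 0.231% of all tested probes passed. At an unadjusted p under 0.05, 6 of the 16 were higher in KA-SE and 0 were lower, where 5.02% of all tested probes were higher by that measure. For 6 of the 16 probes, all 3 KA-SE arrays lay above all 3 saline arrays, where 7.33% of all tested probes did so. The log2 change was above 0 for 15 of the 16 probes and for 9 of the 10 genes, and probes of the same gene are not independent. It was near 0 for some of these, at 0.06 for Tap2, 0.05 for Tapbp and 0.10 and 0.02 for the Cd74 probes. The share of all tested probes above 0 is not given here. Taking the brightest tested probe of each gene, the median log2 change was 0.29, against -0.012 over all tested probes, whose quartiles were -0.109 and 0.088. When KA-SE replicate 3 was left out, this median was 0.14, and 3 of the 16 probes were higher at an unadjusted p under 0.05. The share of all tested probes without that array is not given here, so these 3 have no background.

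**Figure D1:**
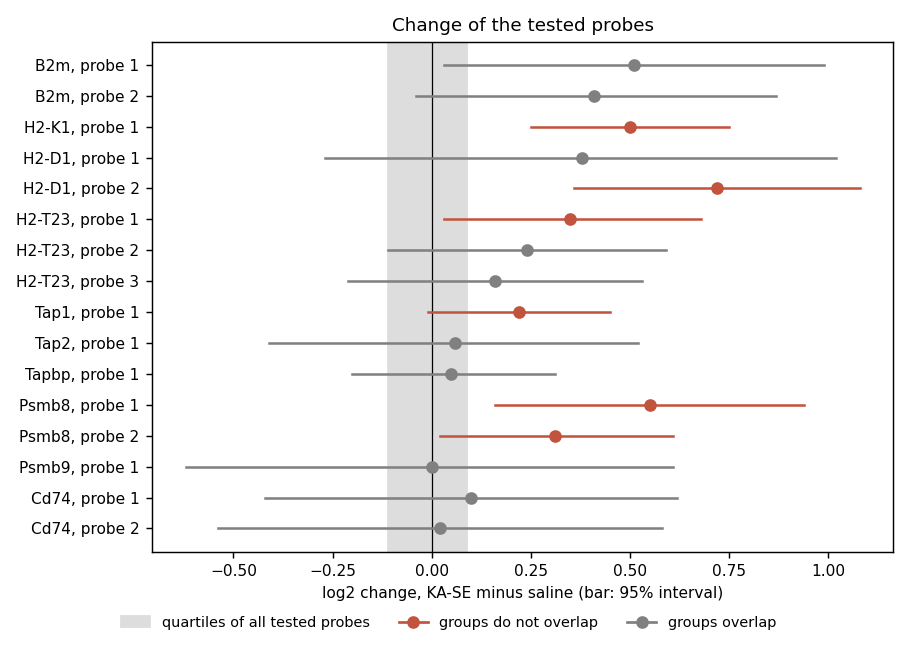
Log2 change (KA-SE minus saline) of the 16 tested probes, 1 row per probe, with bars for the 95% interval of the limma fit and a grey band between the quartiles of all 21226 tested probes. Rows in red are the 6 probes whose groups did not overlap, and 15 of the 16 points lie to the right of 0.

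The light chain gene B2m (GRCm38.p6, chr2:122147687-122153082) was read by 2 tested probes with nearly the same result. For the brighter probe, the log2 signals were 10.88, 10.99 and 11.22 in saline replicates 1 to 3 and 11.14, 11.37 and 12.10 in KA-SE replicates 1 to 3. The KA-SE values were above the saline mean in 3 of 3 arrays, but KA-SE replicate 1 lay below saline replicate 3, so the groups overlapped. The log2 change was 0.51 ± 0.216 (SE, 3 mice per group, limma adjusted p = 0.566), a 1.42-fold difference with a 95% interval from 0.03 to 0.99 on the log2 scale. The other probe gave 10.97, 10.87 and 11.25 in saline and 11.08, 11.30 and 11.96 in KA-SE, with a log2 change of 0.41 ± 0.206 (limma adjusted p = 0.678). On both probes KA-SE replicate 3 was the highest of the 6 arrays. Without it, the change of the brighter probe was 0.23, and a further B2m probe was not detected on any array.

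H2-K1 (chr17:33996012-34000619) encodes a classical class I heavy chain, the peptide-binding chain that cytotoxic T cells recognize. Its tested probe read 5.67, 5.59 and 5.67 in saline and 6.02, 6.12 and 6.27 in KA-SE. The groups did not overlap, and the spread within saline was small (SD 0.0476). The log2 change was 0.50 ± 0.113 (SE, n = 3 per group, 95% interval 0.25 to 0.75, limma adjusted p = 0.153), a 1.41-fold difference. When KA-SE replicate 3 was left out, the change was 0.43. It was 0.32 with a normexp offset of 50 and 0.29 with no background correction. Of the other H2-K1 probes, 1 was detected on a single saline array and 1 on no array.

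H2-D1 (chr17:35263094-35267497), the other classical heavy chain gene measured, had probes that disagreed. The brightest read 8.25, 8.27 and 8.65 in saline and 8.32, 8.37 and 9.61 in KA-SE. KA-SE replicates 1 and 2 lay within the saline range, and only replicate 3 stood above it. The log2 change of this probe was 0.38 ± 0.291 (SE, limma adjusted p = 0.86), and -0.04 omitting KA-SE replicate 3. The second probe read 7.94, 8.01 and 8.18 in saline and 8.53, 8.62 and 9.14 in KA-SE, so its groups did not overlap. Its log2 change of 0.72 ± 0.162 (SE, n = 3 per group, 95% interval 0.36 to 1.08, limma adjusted p = 0.147), a 1.65-fold difference, was the largest of the 16 probes. It was 0.53 omitting KA-SE replicate 3.

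A dimmer H2-D1 probe was not tested, since it was detected on 0 saline arrays and on 2 KA-SE arrays. Its log2 signals were 4.71, 4.51 and 4.62 in saline and 4.75, 4.76 and 5.32 in KA-SE. Saline values below the detection limit, which is the lowest detected signal on each array, were raised to it. Against these, the mean KA-SE signal was 1.11-fold higher, with no error computed. KA-SE replicate 2 was itself not detected. KA-SE replicates 1 and 2, at 4.75 and 4.76, lay close to saline replicate 1 at 4.71, so the value rests on KA-SE replicate 3. The remaining probe was not detected on any array. Some heavy chain genes are similar to one another and vary in sequence between strains. Which of them a probe assigned to H2-K1, H2-D1 or another heavy chain gene reads is therefore uncertain. The probe sequences were not used here.

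H2-T23 (chr17:36029977-36032701) encodes Qa-1, a non-classical heavy chain that presents leader peptides to receptors of natural killer cells. Its brightest probe read 7.62, 7.35 and 7.76 in saline and 7.84, 7.78 and 8.17 in KA-SE. The groups did not overlap, although the highest saline array and the lowest KA-SE array differed by little. The log2 change was 0.35 ± 0.147 (SE, n = 3 per group, 95% interval 0.03 to 0.68, limma adjusted p = 0.553), a 1.28-fold difference. The second probe had a log2 change of 0.24 ± 0.157 and the third one of 0.16 ± 0.166 (limma adjusted p = 0.79 and 0.925), and the groups of both overlapped. Of the 3 probes, then, all had a positive change and 1 separated the groups. When KA-SE replicate 3 was left out, the changes were 0.23, 0.09 and 0.00.

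**Figure D2:**
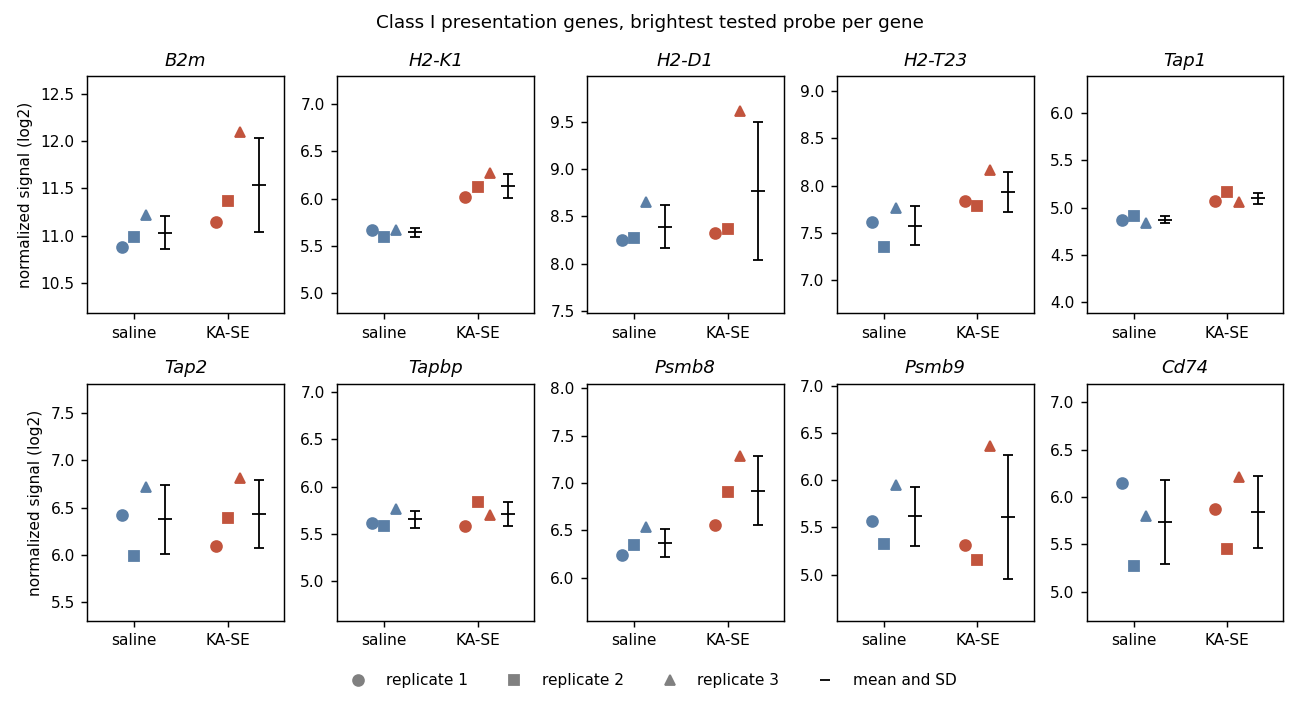
Normalized log2 signal of the brightest tested probe of each member in the 3 saline (blue) and 3 KA-SE (red) arrays, with the mean and SD beside them. Each panel spans the same number of log2 units, and the groups do not overlap for H2-K1, H2-T23, Tap1 and Psmb8.

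Tap1 and Tap2 encode the chains of the peptide transporter. Tap1 (chr17:34187556-34197225) read 4.87, 4.91 and 4.84 in saline and 5.07, 5.16 and 5.06 in KA-SE, without overlap. The difference was small, at 0.22 ± 0.105 on the log2 scale (SE, n = 3 per group, 95% interval -0.01 to 0.45, limma adjusted p = 0.644), a 1.17-fold difference. This probe was dim, close to the detection limit, where the offset added before the logarithm understates a change. Its change omitting KA-SE replicate 3 was 0.24, and it was 0.11 with a normexp offset of 50 and 0.10 with no background correction.

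Tap2 (chr17:34204479-34216321) read 6.42, 5.99 and 6.72 in saline and 6.09, 6.39 and 6.81 in KA-SE. The groups overlapped almost entirely, with a log2 change of 0.06 ± 0.211 (SE, limma adjusted p = 0.984). Tapbp (chr17:33919478-33929290), the gene of tapasin, which bridges the transporter and the heavy chain, read 5.62, 5.59 and 5.76 in saline and 5.59, 5.84 and 5.70 in KA-SE. Its log2 change was 0.05 ± 0.117 (SE, limma adjusted p = 0.973). A further Tapbp probe was detected on 1 saline array alone and was not tested. Of Tap1, Tap2 and Tapbp, only Tap1 separated the groups. When KA-SE replicate 3 was left out, the log2 change of Tap2 was -0.13.

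Psmb8 and Psmb9 encode inducible catalytic subunits, LMP7 and LMP2, of the immunoproteasome, and lie beside Tap1 and Tap2 in the class II region. Psmb8 (chr17:34198195-34201454) read 6.24, 6.34 and 6.53 in saline and 6.56, 6.90 and 7.29 in KA-SE, without overlap. Its log2 change of 0.55 ± 0.176 (SE, n = 3 per group, 95% interval 0.16 to 0.94, limma adjusted p = 0.367), a 1.46-fold difference, was the largest among the 10 genes by their brightest probe. A second Psmb8 probe, detected on 2 of the 3 saline arrays, read 4.64, 4.95 and 4.99 in saline and 5.04, 5.19 and 5.30 in KA-SE, with a log2 change of 0.31 ± 0.132 (limma adjusted p = 0.563). Both probes of Psmb8 therefore separated the groups. When KA-SE replicate 3 was left out, the change of the brighter probe was 0.36.

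Psmb9 (chr17:34182030-34187330), which shares its upstream region with Tap1, had equal group means. It read 5.57, 5.33 and 5.95 in saline and 5.31, 5.16 and 6.36 in KA-SE. KA-SE replicates 1 and 2 lay below every saline array and replicate 3 above every one, which left a log2 change of 0.00 ± 0.279 (SE, 95% interval -0.62 to 0.61, limma adjusted p = 0.999). When KA-SE replicate 3 was left out, the change was -0.38. The interval spans changes as large as that of Psmb8, so it does not exclude a difference of that size in either direction.

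In the immunoproteasome Psmb8 takes the place of Psmb5, Psmb9 that of Psmb6, and Psmb10 that of Psmb7, so each inducible subunit was compared with its constitutive counterpart within the arrays. Psmb5 read 9.35, 9.34 and 9.63 in saline and 9.0, 8.93 and 9.47 in KA-SE, a log2 change of -0.30 ± 0.158 (SE, limma adjusted p = 0.703). The log2 change of Psmb8 exceeded that of Psmb5 by 0.85, and relative to the saline mean the difference between the 2 probes was 0.62, 1.04 and 0.89 in the KA-SE arrays against -0.04, 0.07 and -0.03 in the saline arrays. The groups were apart on every array, and the two-sided exact permutation test gave p = 0.1, the smallest that 3 against 3 arrays allow, or 0.3 after Benjamini-Hochberg adjustment over the 3 pairs. The change of Psmb9 differed from that of Psmb6 by -0.03 (exact permutation p = 1), and that of Psmb10 from that of Psmb7 by -0.03 (exact permutation p = 0.8, adjusted 1). The groups were therefore apart for 1 of the 3 pairs, and whether the pairs differ from one another was not tested.

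Cd74 (chr18:60803849-60812652) encodes the invariant chain, which occupies the groove of class II molecules on their way to the endosome and can also bind class I molecules. Its brighter probe read 6.15, 5.27 and 5.80 in saline and 5.87, 5.45 and 6.21 in KA-SE. The saline arrays alone spanned nearly the whole range, and the log2 change was 0.10 ± 0.233 (SE, 3 mice per group, limma adjusted p = 0.977). The second probe read 6.06, 5.44 and 5.60 in saline and 5.73, 5.16 and 6.28 in KA-SE, with a log2 change of 0.02 ± 0.253 (limma adjusted p = 0.995). The probes ordered the arrays in a similar way, with saline replicate 1 and KA-SE replicate 3 high on both, and when the latter was left out the changes were -0.08 and -0.26. The remaining Cd74 probe was not detected on any array.

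The KA-SE arrays did not contribute equally. In KA-SE replicate 3, all 10 members lay above the saline mean and 9 lay above every saline array, and this array was the highest of the KA-SE group for 8 of the 10. KA-SE replicate 1 had 6 members above the saline mean and 4 above every saline array. KA-SE replicate 2 had 7 and 6. The median difference of the 10 members from the saline mean was 0.12, 0.19 and 0.61 on the log2 scale in KA-SE replicates 1 to 3, and -0.02, -0.09 and 0.17 in saline replicates 1 to 3. KA-SE replicate 1 thus lay below saline replicate 3 by this median. In KA-SE replicate 3 the difference was 1.22 for H2-D1, 1.07 for B2m, 0.92 for Psmb8 and 0.74 for Psmb9, but 0.19 for Tap1 and 0.05 for Tapbp, which were the members highest in KA-SE replicate 2.

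**Figure D3:**
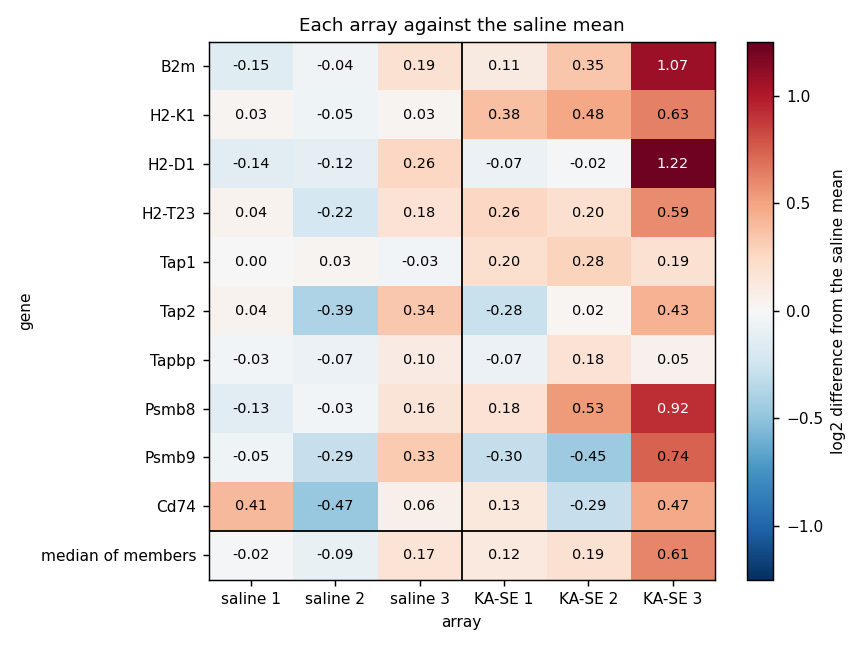
Log2 difference of each array from the saline mean for the brightest tested probe of each of the 10 members, with their median in the bottom row. KA-SE replicate 3 has positive values in all 10 rows and a median of 0.61, against 0.12 and 0.19 in the other KA-SE arrays.

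The other genes of antigen presentation were followed in a list of 76 symbols, of which 71 had a probe and 47 a tested probe. At a limma adjusted p under 0.05, 0 of the 47 passed. At an unadjusted p under 0.05, 12 were higher and 0 lower, against the 5.02% of all tested probes that were higher. The groups did not overlap for 13 genes with KA-SE higher, against the 7.33% of all tested probes, and for 1 with KA-SE lower. The median log2 change of the 47 was 0.07.

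Among the other heavy chains, all 5 tested genes had a positive log2 change, with a median of 0.23. H2-Q7, of the Qa-2 family, read 5.76, 5.74 and 5.61 in saline and 6.01, 5.96 and 6.48 in KA-SE, a log2 change of 0.45 ± 0.149 (SE, limma adjusted p = 0.382). H2-Q6 stood at 0.32 ± 0.115 (limma adjusted p = 0.453) and H2-M3, which presents formylated peptides, at 0.23 ± 0.113 (limma adjusted p = 0.671). All of these separated the groups without passing the test. Of the class I-like molecules, Cd1d1, which presents lipids to natural killer T cells, read 5.29, 5.26 and 5.17 in saline and 5.82, 5.94 and 5.69 in KA-SE, with a log2 change of 0.57 ± 0.115 (limma adjusted p = 0.101). Fcgrt, the neonatal Fc receptor, which also pairs with the B2m product, stood at 0.46 ± 0.121 (limma adjusted p = 0.236) and Hfe, an iron-regulating relative, at -0.07 ± 0.160 (limma adjusted p = 0.973). A second tested probe stood at 0.22 for Fcgrt and -0.03 for Hfe.

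Of the other loading proteins, Pdia3, the disulfide isomerase ERp57, had a log2 change of 0.38 ± 0.123 (SE, limma adjusted p = 0.367), without overlap of the groups. The chaperone gene Calr had a log2 change of 0.12 ± 0.115 (limma adjusted p = 0.906) and the tapasin relative Tapbpl one of -0.07 ± 0.149 (limma adjusted p = 0.972). The proteasome activator genes Psme1 and Psme2 stood at 0.16 ± 0.117 and 0.06 ± 0.125 (limma adjusted p = 0.835 and 0.969), and Psmb10, the remaining inducible subunit, at -0.01 ± 0.117 (limma adjusted p = 0.996). Second tested probes of Psme1 and Psmb10 stood at -0.05 and -0.02. Of the 8 other core subunits tested, 3 had a positive change and the median was 0.00. The groups did not overlap for Psma7 alone, lower in KA-SE, at -0.11 ± 0.106 (limma adjusted p = 0.917), while Psmb3 and Psma5 stood at -0.15 and 0.07. Psmb6 and Psmb7 were both at 0.02, between the quartiles of all tested probes.

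The class II genes had a median log2 change of 0.43 over 8 tested, and 4 of these were higher at an unadjusted p under 0.05. H2-Oa, a chain of the DO molecule that restrains peptide exchange, read 4.68, 4.53 and 4.55 in saline and 5.10, 5.18 and 5.46 in KA-SE, with a log2 change of 0.66 ± 0.128 (SE, limma adjusted p = 0.0928). Its other tested probe stood at 0.48. H2-DMb1 and H2-DMb2, beta chains of the DM molecule that removes the remnant of the invariant chain, stood at 0.50 ± 0.119 and 0.58 ± 0.145 (limma adjusted p = 0.169 and 0.202). Ctss, the protease that degrades the invariant chain, stood at 0.63 ± 0.161 (limma adjusted p = 0.218). The groups did not overlap for any of these. H2-DMa, the alpha chain of DM, stood at -0.01 ± 0.108 (limma adjusted p = 0.996), with overlapping groups, and at -0.17 on its other tested probe. The invariant chain gene Cd74 itself stood at 0.10, and H2-Ab1 and H2-Eb1, chains of the peptide-presenting class II molecules, at 0.36 and 0.04. Further tested H2-Ab1 probes stood at 0.01 and 0.12.

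Regulators of the pathway were also compared. Irf8, a factor of myeloid cells, read 5.64, 5.49 and 5.49 in saline and 6.08, 6.00 and 6.44 in KA-SE, a log2 change of 0.63 ± 0.136 (SE, limma adjusted p = 0.129). Irf9, the DNA-binding part of the complex that type I interferon activates, stood at 0.51 ± 0.154 (limma adjusted p = 0.318) and Irf1 at 0.26 ± 0.135 (limma adjusted p = 0.694). Other tested probes stood at 0.44 for Irf9 and at 0.29, -0.02 and 0.08 for Irf1. Stat2 and Irf2 were at 0.00. The groups were separate for Irf8 and Irf9 and overlapped for Irf1. Nlrc5, the class I transactivator, its class II relative Ciita and Rfx5 were on the array but not bright enough to be tested. Of the receptors, Ifngr1 stood at 0.36 ± 0.137 (limma adjusted p = 0.494), Ifnar2 at -0.27 ± 0.179 (limma adjusted p = 0.8) and the kinase gene Jak2 at 0.15 ± 0.125 (limma adjusted p = 0.887). A second tested probe stood at 0.01 for Ifnar2 and 0.04 for Jak2. Of the receptors that read class I molecules, only Cd8b1 was tested, at 0.02 ± 0.112 (limma adjusted p = 0.991). Cd8a was detected on 0 arrays, so whether the Cd8b1 signal reads T cells is uncertain.

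**Figure D4:**
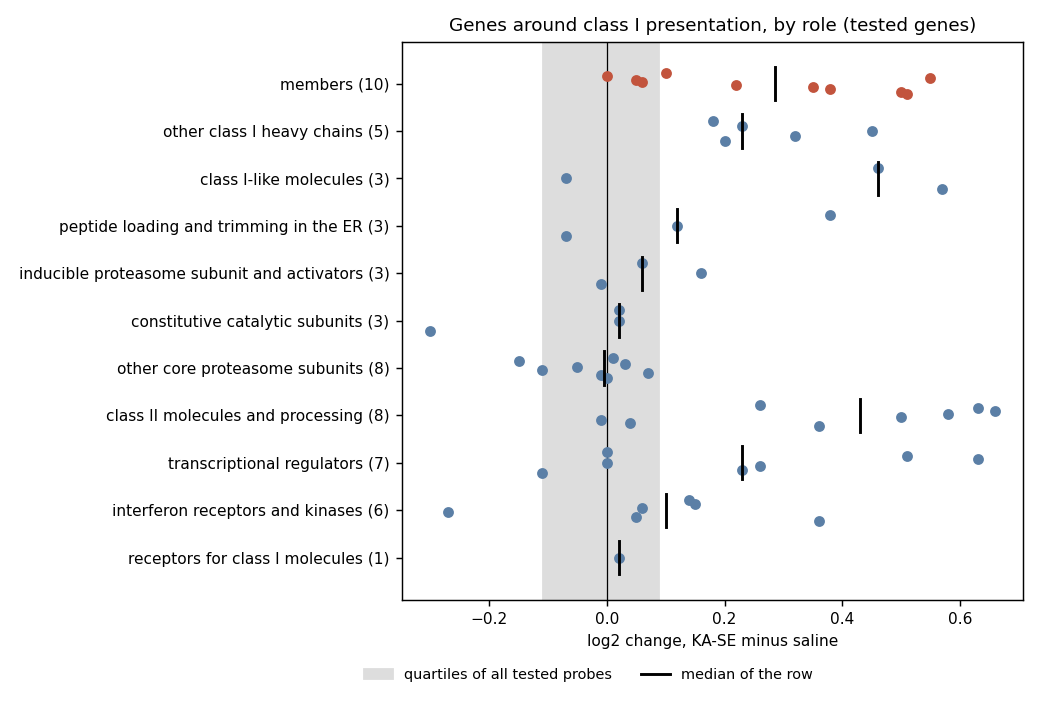
Log2 change (KA-SE minus saline) of the 10 members and of the 47 other tested genes of the pathway, in rows by role with the number tested in brackets, the row's median as a black line and the span between the quartiles of all tested probes in grey. Medians run from 0.00 for the other core proteasome subunits to 0.46 for the class I-like molecules.

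Markers of the cell types that the tissue could hold were set beside these values. Of 12 microglia markers 10 were tested, all with a positive change and a median of 0.51 on the log2 scale, and for 9 the groups did not overlap. Gpr34 passed (log2 change 0.845 ± 0.119, limma adjusted p = 0.0259), but not with any 1 of the 6 arrays left out (limma adjusted p = 0.0523 to 0.136). With all arrays kept, its limma adjusted p was 0.0577 with median scaling and 0.084 in the authors' processed table. It was 0.0501 with a replicate block and 0.212 without the filter on dim probes. It stayed under 0.05 with a changed background correction, an intensity trend or array weights. Fcrls and Csf1r stood at 0.77 and 0.63 (limma adjusted p = 0.113 and 0.0971). The summed linear level of these markers was 2900 to 3190 in saline and 4160 to 5350 in KA-SE, with KA-SE replicate 3 the highest. By array, their median difference from saline was 0.36, 0.42 and 0.73 in KA-SE replicates 1 to 3, beside 0.12, 0.19 and 0.61 for the class I members. The KA-SE arrays thus had the same order in both. In saline replicates 1 to 3 the order differed, at 0.06, 0 and 0.04 for the microglia markers and -0.02, -0.09 and 0.17 for the members. The part that the microglial signal has in the class I values was not tested.

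The 7 astrocyte markers had a median log2 change of 0.36 and summed to 31700 to 34100 in saline and 44400 to 46400 in KA-SE. Gfap, the astrocyte intermediate filament, passed at 1.89 ± 0.138 (SE, limma adjusted p = 0.00057), though not without the filter on dim probes (limma adjusted p = 0.111). The sum is of linear levels, so this large change weighs heavily in its rise. Aqp4 and Gjb6 were next at 0.46 and 0.45 (limma adjusted p = 0.466 and 0.323). Slc1a3 and Aldoc were the lowest, at 0.19 and 0.14 (limma adjusted p = 0.745 and 0.884). A second tested probe stood at 2.26 for Gfap, 0.24 for Aqp4 and 0.1 for Aldoc. The median of the astrocyte markers by array was 0.37, 0.28 and 0.32 in KA-SE replicates 1 to 3, so KA-SE replicate 3 did not stand out in it. The 10 endothelial and mural markers had a median of 0.22 and summed to 1390 to 1850 in saline and 1560 to 2180 in KA-SE, with 8 of 10 positive. By array, their median difference from saline was 0.02, -0.16 and 0.17 in saline replicates 1 to 3. It was 0.18, 0 and 0.25 in KA-SE replicates 1 to 3, so KA-SE replicate 3 was the highest here too. Pecam1, Cldn5 and Flt1 were the highest at 0.29, 0.26 and 0.25 (limma adjusted p = 0.745, 0.909 and 0.743), though a second Pecam1 probe stood at 0.08, and Ly6c1 and Pdgfrb were at -0.10 and -0.06. The 3 blood markers had a median of 0.29, with sums of 9320 to 11000 against 11200 to 13900. The part of these lists in the class I values was not tested either.

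Many markers of lymphocytes and of infiltrating myeloid cells were not detected, though not all. Of 13 T and natural killer cell markers only Cd8b1 and Prf1 were tested. Both were detected in both groups, at mean log2 signals of 9.79 in saline and 9.81 in KA-SE for Cd8b1 and 9.90 and 9.79 for Prf1, with a summed level of 1810 to 1900 in saline and 1660 to 1860 in KA-SE. Cd3d, Cd3g, Cd4, Cd8a, Cd2, Nkg7, Ncr1 and Gzmb were detected on 0 of the 6 arrays, and Cd3e on up to 4 arrays by 1 probe. Of 4 B cell markers 0 could be tested, Ms4a1 was detected on 0 arrays, and Cd79b on up to 2 arrays by 1 probe, both of KA-SE. Of 6 dendritic cell markers, Itgax, Flt3, Xcr1, Cd209a and Clec9a were detected on 0 arrays, and Zbtb46 stood at 0.19 (limma adjusted p = 0.824), with a level of 24.5 to 32.3 in saline and 30.1 to 35.8 in KA-SE. Of 9 macrophage markers Ccr2, Lyve1, Plac8 and Chil3 were detected on 0 arrays, Ms4a7 on up to 2 and Cd163 on up to 1, and the tested F13a1 and Mrc1 summed to 90.9 to 116 in saline and 100 to 117 in KA-SE. The labelled tissue was checked with granule cell markers, of which Prox1 and C1ql2 were detected in all groups. Calb1 and Tdo2 were detected on 0 arrays. The summed level of Prox1 and C1ql2 was 4290 to 4760 in saline and 4640 to 5960 in KA-SE. Most of this sum is C1ql2, at a mean log2 signal of 11.99 in saline against 8.84 for Prox1. Their log2 changes had opposite signs, at 0.29 for C1ql2 and -0.23 for Prox1 (limma adjusted p = 0.597 and 0.749). The other tested Prox1 probe stood at -0.14.

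**Figure D5:**
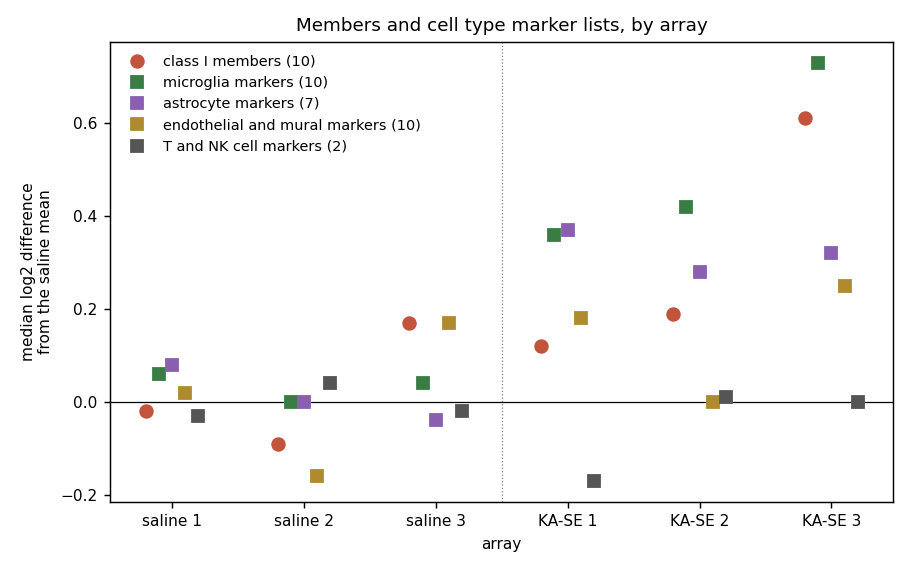
Median log2 difference from the saline mean, by array, for the 10 class I members (circles) and for the tested genes of 4 marker lists (squares, number tested in the legend). In KA-SE replicate 3 the members stand at 0.61 and the microglia markers at 0.73, and the T and NK cell markers lie at or below 0.01 in all KA-SE arrays. The T and NK cell points rest on Cd8b1 and Prf1 alone, and most other markers of that list were not detected.

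The genes whose profile over the 6 arrays was most like the median of the members were then sought among all named genes, clone and predicted names left out, by the root mean square difference of their log2 values from the saline mean. The nearest were Car5b at 0.0536, Tagln2 at 0.059, Coro7 at 0.0618, Snx18 at 0.0689, Hexa at 0.071 and Arl14epl at 0.0741 log2 units. Tagln2 stood at 0.14, 0.27 and 0.72 in KA-SE replicates 1 to 3, and Hexa, a lysosomal hexosaminidase subunit, at 0.16, 0.17 and 0.51. All 6 had positive log2 changes, from 0.23 to 0.38, and like the members they were highest in KA-SE replicate 3. As the 6 were picked for this likeness among all named genes, it is a description with n = 6 arrays.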

How the data were processed

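Total RNA of the micro-dissected right DG was extracted with TRIzol, and labelled cRNA of each mouse was read on its own array. The authors read the arrays in GenomeStudio, whose version is not given in the sources used here. The deposited table holds a raw intensity for each probe and array, with a detection p-value that the authors computed against control probes. The authors also deposited processed values, called a score here, made by background correction, transformation and normalization, and the log base and offset of that score are unknown, so it served as an alternative on its own scale. Slide positions and scan times were not used here, so batches were not tested.

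Intensities were corrected by normexp with negative controls inferred from the detection p-values (offset 16), quantile normalized and transformed to log2 (neqc, limma 3.58.1, R 4.3.3). A probe was tested if its detection p was under 0.05 on every array of either group. The test was limma's linear model with moderated variances (6.40 prior degrees of freedom), two-sided, and p-values were adjusted after Benjamini and Hochberg across the 21226 tested probes. Standard errors are the moderated ones. Where a gene had several tested probes, the brightest on average stands for it. For the proteasome pairs, the 20 assignments of 6 arrays allow no permutation p under 0.1. The procedure was tested on simulated data with changes larger than those of the members, so that test does not cover changes of their size.

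Symbols came from the platform annotation, updated by Entrez identifier to RefSeq (GRCm38.p6), and 34885 probes had 1 gene, 18 several and 10378 none listed. H2-K1 and H2-D1 are also older synonyms of other H2 genes, whose probes were kept under their own symbols. Gene positions and promoter windows are from RefSeq, the probes themselves have no coordinates here, and identity was computed by pairwise alignment in Biopython 1.88. Promoter windows were used for 8 of the 10 members, without Tap2 and Cd74.

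Genes named in the text are all members, up to 3 genes with the smallest p per role of the pathway list, the counterparts of the inducible subunits, the 6 genes most like the members in profile, and markers at background or with the largest changes. Ctss, H2-DMa, Irf2, Stat2, H2-Ab1, H2-Eb1, Ly6c1, Pdgfrb, Slc1a3, Aldoc, Nlrc5, Ciita and Rfx5 were named in addition, after their values were seen. The members, lists and tests were chosen with earlier results of these data known. Alternatives covered background correction, normalization, the processed table, the filter on dim probes, the variance prior, array weights, the choice among probes, a replicate block and omission of each array. With 3 arrays per group, their number limits the precision of every comparison.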

Additional observations from a re-analysis of the deposited data

How the results depend on the processing

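For the member probes, 0 passed an adjusted p under 0.05 under any alternative run. The 249 member values under the alternatives, for single probes or for the mean of a gene's tested probes, all stayed on their side of the threshold. Of these, 25 differed in sign from the value reported. The lowest adjusted p of a member was 0.0714 for H2-D1 with an intensity trend and robust prior, 0.0878 with array weights and 0.309 with median scaling. The median log2 change of the member genes ran from 0.14 to 0.36 with 1 array left out, and was 0.21 with an offset of 50, 0.19 with no background correction and 0.22 with median scaling, the last of which moved the median of all probes to -0.103. The members whose groups did not overlap numbered 2 with median scaling (H2-K1 and Tap1, against 3.09% of all tested probes) and 4 to 6 with 1 array left out, where 10.5% to 13.9% of all tested probes did not overlap. The brightest H2-D1 probe ranged from -0.04 to 0.60 and Psmb9 from -0.38 to 0.22 across the alternatives. The difference Psmb8 minus Psmb5 ranged from 0.70 to 0.96, Psmb9 minus Psmb6 from -0.39 to 0.22 and Psmb10 minus Psmb7 from -0.22 to 0.12. The pathway list had 0 genes past the threshold under each alternative run.

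Over all probes, 49 passed in the analysis reported. The count was 78 with median scaling, 9 in the authors' processed table and 0 without a filter on dim probes. It was 81 with a trend and robust prior and 89 with array weights. Without KA-SE replicate 1 it was 79, and without any other single array 4 or 5. The cause of these shifts was not tested. With the replicate number as a replicate block it was 32, of which 0 were member probes, with 0.0732 as the lowest adjusted p of a member. Deviations of same-numbered arrays correlated at 0.02, 0.18 and 0.24, and those of differently numbered arrays at -0.21 to 0.05. The numbers were not used as pairs in the analysis reported, and whether they pair the animals was not tested. For dim probes the size of a change depends on the background handling: the second probe of Psmb8 stood at 0.15 with an offset of 50 and 0.14 with no background correction, against 0.31.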
